A study of Homo sapiens with 6 samples.

Results

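Mucins, the trefoil factors secreted with them and the regulators of goblet cells were followed as a group of 10 genes (MUC1, MUC2, MUC5AC, MUC5B, MUC12, MUC13, TFF1, TFF3, SPDEF and AGR2) among the 58884 genes of the deposited table, in which each was found by the Ensembl identifier that carries its symbol in GENCODE release 44. RNA was sequenced from DLD1 parental cells, which come from a colorectal cancer and carry a helical domain mutation of PIK3CA, as do their derivatives, and from DLD1 cells in which p85β carries K477A/R478A (p85β KR-AA cells, here also mutant cells), with 3 libraries in each group. These changes were knocked into PIK3R2, the gene for p85β, and remove a nuclear localization signal. The p85β KR-AA cells are homozygous clones, a pair of which the paper describes, and the labels do not say which clone a library came from or whether libraries came from separate cultures, so that p-values measure the spread between these libraries only. A further label field gives other residue numbers for mutant replicates 2 and 3, and the title and genotype fields were followed. The comparison asks which of these genes differ in RNA level between cells with and without nuclear p85β.

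Goblet cells cover the colon with mucus. MUC2, MUC5AC and MUC5B are gel-forming mucins, giant glycoproteins that are cross-linked, packed into granules and secreted, and MUC2 builds the mucus of the normal colon while MUC5AC is best known from the stomach and airways. MUC1, MUC12 and MUC13 are membrane mucins of the epithelial surface. TFF1 and TFF3 are small secreted peptides with a trefoil fold. SPDEF is an ETS-family transcription factor of goblet cell maturation, and AGR2 is a protein disulfide isomerase of the endoplasmic reticulum that assists mucin folding.

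In mutant cells AGR2, MUC1 and MUC13 were higher than in parental cells and TFF1 and TFF3 were lower. On the CPM scale (counts scaled to library size after TMM normalization) AGR2 was 6.95-fold higher, MUC1 5.91-fold and MUC13 4.13-fold, while TFF1 was 4.34-fold lower and TFF3 3.02-fold lower. The calls of MUC13, TFF1 and TFF3 were lost under offsets for length and GC content, at log2 fold changes of 1.03, -0.38 and -0.061, and those of TFF1 and TFF3 also with libraries scaled by their totals. MUC5AC had many counts in both conditions without a difference beyond the spread between replicates. MUC2, MUC5B and MUC12 had few counts in every library. Calls of up- or down-regulation needed 3-fold or more and an adjusted p below 0.01, the thresholds of the paper's methods. All 16059 genes with enough counts entered edgeR's quasi-likelihood test, and SE stands for the standard error of a log2 fold change.

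Of the 10 genes, 9 passed this filter, 3 were called up and 2 down. Among all tested genes 28.6% were called up and 17.6% down, 46.2% in all, so that the share of called genes in the group was near the background. The median log2 fold change of the 9 genes was -0.40, and that of all tested genes was 0.32. With length and GC offsets these medians were 0.29 and -0.043, so that their order depended on the processing. All mutant libraries lay above all parental libraries for 4 of the 9 genes and below them for 3, where the background was 47.0% and 36.5%. The 4 include MUC12, which passed the filter only through the mutant libraries and whose conditions were barely apart, at 0.546 against 0.531 CPM. Without the fold threshold 3 of the 9 genes were higher and 3 lower, SPDEF joining TFF1 and TFF3, against 41.6% and 32.7% of all tested genes.

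**Figure D1:**
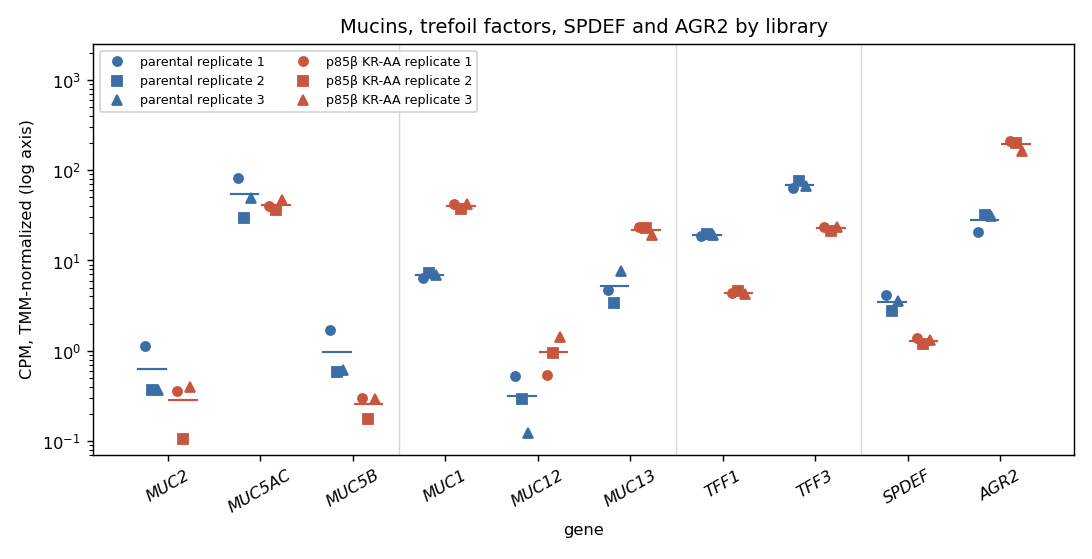
CPM (log axis) of the 10 genes in each of the 6 libraries, with parental libraries in blue, mutant libraries in red, 1 symbol per replicate number and a horizontal line at the mean of the 3 libraries. Vertical lines divide gel-forming mucins, membrane mucins, trefoil factors and the goblet regulators. AGR2, MUC1 and MUC13 lie higher in red, TFF1, TFF3 and SPDEF lie higher in blue, and MUC5AC overlaps.

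The libraries held 20301932 to 20873475 counts in parental cells and 20301396 to 26712816 in mutant cells, and 3 counts, the smallest level treated as detectable, stood for 0.185 to 0.218 CPM and 0.0818 to 0.109 CPM, a limit that covers counting error only. The conditions differed across the transcriptome. The share of counts in genes over 4000 bases was 9.49% to 12.1% in parental and 27.7% to 28.9% in mutant libraries, and across all tested genes the log2 fold change had a Spearman correlation of 0.453 with gene length and of -0.567 with GC content, given as a description since the genes share the same 6 libraries. Parental replicate 2 had the lowest share of long genes. The summed level of 14 epithelial markers was 58781 to 81033 CPM in parental libraries and 9399 to 10974 CPM in mutant libraries. Of these markers 13 were tested and 7 were called down, the keratins KRT8, KRT18 and KRT19 among them, while 2, CDH1 and CDH17, were called up. Across all tested genes 17.6% were called down and 28.6% up. With length and GC offsets 3 of the 13 were called down and 0 up, and KRT19, at -0.85 on the log2 scale, was not called. These keratins and EPCAM were present in every library. VIM, a filament protein of mesenchymal cells, was at 1772 ± 70.1 CPM (SD, n = 3) in mutant cells and at 0.803 ± 0.182 CPM (SD, n = 3) in parental cells. Of 16 mesenchymal markers, 12 were tested, 8 were called up and 1 down, against 28.6% and 17.6% of all tested genes. With at least 10 counts required in every library 5 were tested, 3 were called up and 1 down. The up calls lost there include genes with fewer than 10 counts in a parental library, which passed the filter through the mutant libraries. The summed level of the 16 markers was 28.5 to 30.9 CPM in parental libraries and 6332 to 7245 CPM in mutant libraries, while PDGFRA was at 0 in every library. The part of length, GC content and the epithelial and mesenchymal markers in the results below was not tested, except that each fold change was also fitted with offsets for length and GC content. These offsets used the lengths given in the deposited table. In bulk libraries fewer cells with a transcript and less of it in each cell cannot be told apart.

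MUC5AC (ENSG00000215182, chromosome 11 of GRCh37, 1151580 to 1222364) had the most counts of the gel-forming mucins in every library. The deposited table gives it a length of 17448 bases and MUC2 a length of 393 bases. Per kilobase of these lengths MUC5AC and MUC2 overlapped in parental cells, so that the counts do not rank their transcripts. The level of MUC5AC was 82.8, 29.6 and 49.1 CPM in parental replicates 1, 2 and 3 and 39.7, 36.5 and 46.4 CPM in mutant replicates 1, 2 and 3. The parental libraries spread more widely than the mutant libraries, which lay inside their range. The log2 fold change was -0.40 (SE 0.28, edgeR adjusted p = 0.2). It was 0.044 without parental replicate 1, the library with the highest value, and 0.52 with libraries scaled by their totals, so that no direction can be given. The offsets for length and GC content gave -0.96 (edgeR adjusted p = 1.52e-04), which did not reach the fold threshold.

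MUC2 (ENSG00000198788, chromosome 11, 1074875 to 1104416), the main mucin of colonic mucus, had estimated counts of only 17, 5 and 6 in parental cells and 13, 3 and 11 in mutant cells. The conditions overlapped, with a log2 fold change of -1.09 (SE 0.59, edgeR adjusted p = 0.1). The deposited table gives MUC2 a length of 393 bases, although the exons annotated for it in GENCODE cover 7357 bases, and reads from the rest of the gene may therefore not be in its count. MUC5B (ENSG00000117983, chromosome 11, 1244296 to 1283402) had 25.59, 8 and 10 counts in parental and 11, 5 and 8 in mutant libraries and did not pass the filter. Without the filter on low counts MUC5B was called down, on these few counts. Its levels were 1.70, 0.583 and 0.617 CPM against 0.300, 0.174 and 0.292 CPM, with the parental libraries higher. The value of 25.59 is not whole, and MUC5B-AS1, which overlaps MUC5B on the opposite strand, had 0.41 counts in the same library and 0 in the others. MUC6, a gel-forming mucin of the stomach that lies beside MUC2 on chromosome 11, was at 0.633 ± 0.375 CPM in parental and 0.746 ± 0.284 CPM in mutant cells (mean ± SD, n = 3 in both), a log2 fold change of 0.25 (edgeR adjusted p = 0.65). Of the 4 mucins of this cluster, MUC5AC was the only one above 2 CPM in any library, on a scale that does not take length into account.

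MUC1 (ENSG00000185499, chromosome 1, 155158300 to 155162707), a membrane mucin of most glandular epithelia, was at 6.44, 7.21 and 6.97 CPM in parental libraries and at 42.7, 37 and 42.1 CPM in mutant libraries. The replicates lay close together and the conditions far apart, with a log2 fold change of 2.56 (SE 0.16, edgeR adjusted p = 2.05e-08). It was 2.94 with length and GC offsets. A gene that overlaps MUC1 on the same strand had at most 8.4 counts in any library. MUC13 (ENSG00000173702, chromosome 3, 124624289 to 124672663), a membrane mucin of the gut, was at 4.72, 3.35 and 7.71 CPM in parental libraries and at 23.3, 22.9 and 19.0 CPM in mutant libraries. The log2 fold change was 2.04 (SE 0.26, edgeR adjusted p = 9.45e-06). With length and GC offsets it was 1.03 and the call was lost. The call was also lost in a test against a fold change of 3 (edgeR adjusted p = 0.040).

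MUC12 (ENSG00000205277, chromosome 7, 100612846 to 100662220), another membrane mucin of the colon, had 8, 4 and 2 counts in parental libraries and 20, 27 and 39.09 counts in mutant libraries. It passed the filter only through the mutant libraries. The lowest of these, 0.546 CPM, lay just above the highest parental library at 0.531 CPM, and the gene was not called (log2 fold change 1.60, SE 0.55, edgeR adjusted p = 0.017). Leaving out a library moved this value from 1.15 without parental replicate 3 to 2.20 without parental replicate 1, and without mutant replicate 1 the gene was called up, at 1.91 (edgeR adjusted p = 0.0060). MUC12-AS1, which overlaps it on the opposite strand, had between 2 and 8.91 counts per library, and the kit named in the labels does not mark strand. Of the neighbouring membrane mucins on chromosome 7, MUC3A fell from 11.8 ± 1.12 to 3.66 ± 0.20 CPM (mean ± SD, n = 3 in both), a log2 fold change of -1.69 (edgeR adjusted p = 3.48e-06), and MUC17 had no count in any library. Summed over MUC1, MUC12 and MUC13, the membrane mucins amounted to 10.9 to 14.8 CPM in parental libraries and 60.9 to 66.6 CPM in mutant libraries.

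TFF3 (ENSG00000160180, chromosome 21, 43731777 to 43735519), the trefoil factor of intestinal goblet cells, was at 63.4, 75.2 and 66.2 CPM in parental libraries and at 23.3, 21.2 and 23.4 CPM in mutant libraries. All mutant libraries lay below all parental ones. The log2 fold change of -1.59 (SE 0.14, edgeR adjusted p = 3.05e-07) lay just past the fold threshold of 1.585 on the log2 scale. It was -1.55 without parental replicate 2 and -1.54 without mutant replicate 2, where the call was lost. With no filter on low counts it was -1.54 and with at least 10 counts in every library -1.40, also without a call. Tested against a fold change of 3, TFF3 was not called (edgeR adjusted p = 0.51). With length and GC offsets the log2 fold change was -0.061. TFF1 (ENSG00000160182, chromosome 21, 43782391 to 43786644), the trefoil factor of gastric surface cells, was at 18.7, 19.7 and 19.1 CPM in parental libraries and at 4.42, 4.56 and 4.26 CPM in mutant libraries. The replicates of a condition barely differed, and the log2 fold change was -2.12 (SE 0.17, edgeR adjusted p = 1.61e-07). It was -0.38 and no longer called with length and GC offsets. TFF2, which lies between TFF3 and TFF1 on chromosome 21, had 4, 6 and 13 counts in parental and 7, 8 and 5 in mutant libraries and did not pass the filter. TFF1 and TFF3 are short, at 492 and 452 bases in the deposited table, and the share of counts in genes up to 1000 bases was 23.6% to 27.6% in parental and 13.1% to 13.3% in mutant libraries.

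SPDEF (ENSG00000124664, chromosome 6, 34505579 to 34524110) was at 4.18, 2.77 and 3.52 CPM in parental libraries and at 1.39, 1.18 and 1.31 CPM in mutant libraries, with no overlap. The log2 fold change of -1.43 (SE 0.27, edgeR adjusted p = 2.76e-04) did not reach the fold threshold, and with length and GC offsets it was 0.29. AGR2 (ENSG00000106541, chromosome 7, 16831435 to 16873057) was at 20.7, 31.9 and 31.0 CPM in parental libraries and at 212.9, 202.4 and 164.8 CPM in mutant libraries. Its lowest mutant library was far above the highest parental library. The log2 fold change was 2.80 (SE 0.18, edgeR adjusted p = 2.60e-08), and with length and GC offsets it was 2.56. The deposited lengths of AGR2, MUC1 and MUC13 were 782, 4170 and 2879 bases, and their annotated exons cover 2764, 2401 and 3496 bases. AGR3, its neighbour and closest relative, had no count in any library. Over the 6 libraries, the protein-coding genes whose log2 CPM followed that of AGR2 most closely were BMPR1A, TBC1D19 and CLTRN, with Pearson correlations of 0.9999, 0.9998 and 0.9998, which mainly describe the difference between the conditions.

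**Figure D2:**
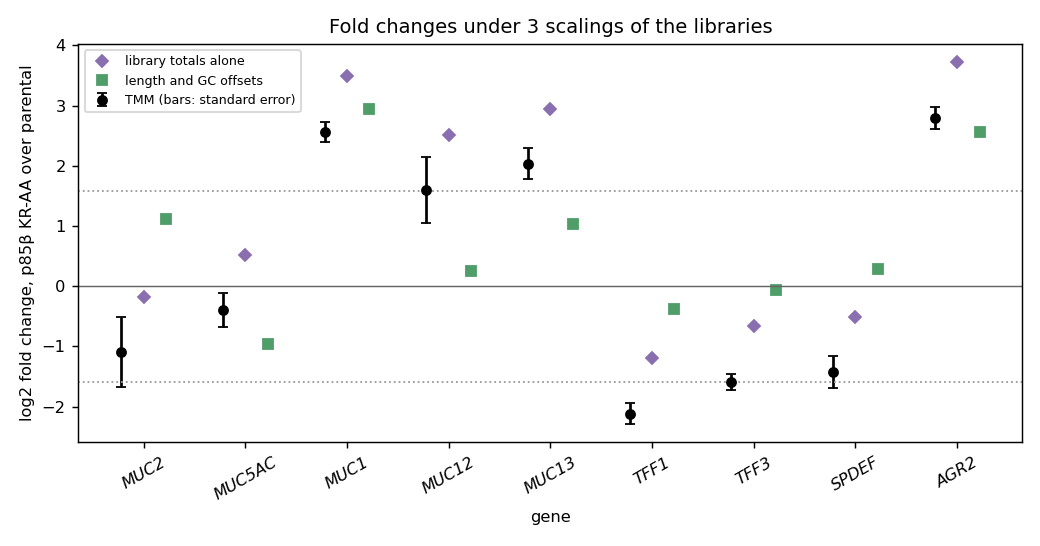
Log2 fold change of mutant over parental cells for the 9 tested genes, with TMM normalization (black, bars show the standard error), with scaling by library totals (purple) and with length and GC offsets (green). Dotted lines mark a fold change of 3 and the solid line marks 0. MUC1 and AGR2 lie above the upper dotted line under all of them, and TFF1 and TFF3 lie below the lower dotted line only with TMM.

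Since the calls of the trefoil factors and MUC13 moved with the scaling, the calls were counted under each scaling. With length and GC offsets 2 of the 9 genes, MUC1 and AGR2, were called up against 14.0% of all genes, and 0 were called down against 10.5%, with 2 lower at an unadjusted p under 0.05. With libraries scaled by their totals alone, which shifted the median over all genes by 0.921 on the log2 scale, 4 (MUC12 in addition) were called up against 43.9% of all genes and 0 down against 6.06%, again with 2 lower at an unadjusted p under 0.05. DESeq2 called 3 up and 2 down. With library totals TFF1 and TFF3 had log2 fold changes of -1.19 and -0.66, which did not reach the fold threshold.

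A ratio of counts of 2 genes within a library does not depend on how libraries are scaled. It still holds any difference between the conditions that goes with gene length or GC content. TFF3 has a deposited length of 452 bases, and AGR2, MUC1 and MUC13 have 782, 4170 and 2879. With length and GC offsets the log2 fold change was -0.061 for TFF3, and 2.56, 2.94 and 1.03 for AGR2, MUC1 and MUC13. These ratios were chosen after the values were seen and are given without a test. AGR2 had 0.326, 0.424 and 0.468 counts for each count of TFF3 in parental libraries and 9.15, 9.54 and 7.04 in mutant libraries. TFF3 therefore had more counts than AGR2 in every parental library and fewer in every mutant library. The ratio of MUC1 to TFF3 was 0.102, 0.0959 and 0.105 in parental and 1.84, 1.75 and 1.80 in mutant libraries, and that of MUC13 to TFF3 was 0.0743, 0.0446 and 0.117 against 1.00, 1.08 and 0.812. TFF1 and TFF3 have deposited lengths of 492 and 452 bases, and their annotated exons cover 492 and 922 bases. The ratio of TFF1 to TFF3 was 0.295, 0.262 and 0.288 in parental and 0.190, 0.215 and 0.182 in mutant libraries. TFF1 was thus lower relative to TFF3 in each mutant library than in any parental library. The ratio of SPDEF to TFF3 overlapped between the conditions, at 0.0368 to 0.0660 in parental and 0.0558 to 0.0598 in mutant libraries. Among the genes that rose, the ratio of AGR2 to MUC1 also overlapped, at 3.21 to 4.44 and 3.92 to 5.47.

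**Figure D3:**
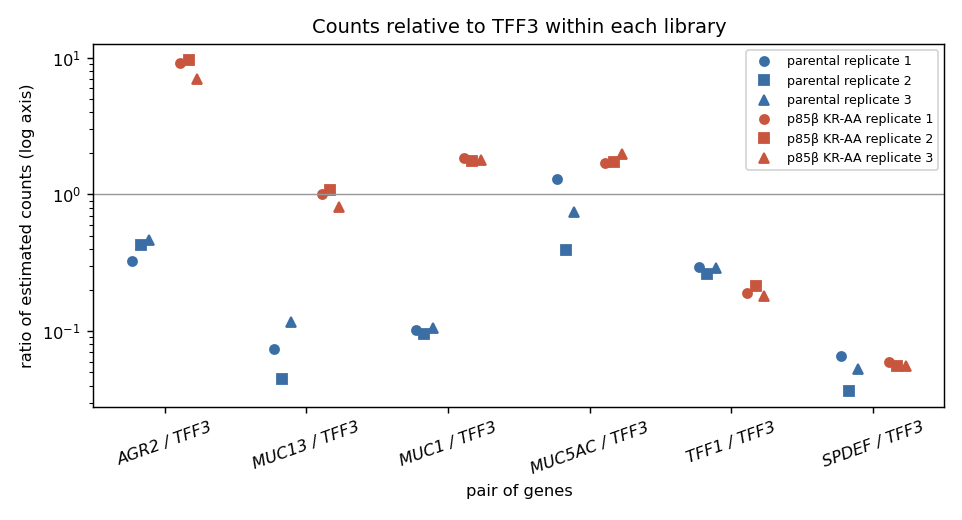
Ratio of the estimated counts of 6 genes to those of TFF3 within each library (log axis), with parental libraries in blue, mutant libraries in red and 1 symbol per replicate number. The gray line marks equal counts. AGR2 and MUC1 lie below the line in every parental library and above it in every mutant library, TFF1 is lower in red, and SPDEF overlaps.

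Per kilobase of the length in the deposited table, on the RPKM scale (CPM divided by the length in kilobases), TFF3 was the highest of the 10 genes in parental cells at 151.0 ± 13.6 RPKM, followed by TFF1 at 38.9 ± 0.96 and AGR2 at 35.6 ± 7.98 RPKM (mean ± SD, n = 3). TFF1 and AGR2 overlapped there. MUC5AC at 3.08 ± 1.54 RPKM, SPDEF, MUC13, MUC1 and MUC2 at 1.58 ± 1.12 RPKM formed a lower set in which each overlapped its neighbour. In mutant cells AGR2 was first at 247.3 ± 32.3 RPKM and TFF3 second at 50.1 ± 2.74 RPKM (mean ± SD, n = 3), and these did not overlap. MUC1 at 9.74 ± 0.75 and TFF1 at 8.97 ± 0.30 RPKM overlapped, and MUC13 followed at 7.55 ± 0.82 RPKM. MUC5B and MUC12 were the lowest in both conditions, under 0.1 RPKM in every library. Several places in this order depended on the length used. With the exons annotated in GENCODE as the length instead, TFF3 was still first in parental cells and AGR2 first in mutant cells. Parental AGR2 was then at 10.1 CPM per kilobase, apart from TFF1 at 38.9 and beside MUC5AC at 9.07. In mutant cells MUC1 at 16.9 CPM per kilobase no longer overlapped TFF1 at 8.97. MUC2 was at 0.0844 CPM per kilobase in parental cells. Its deposited length is 393 bases where its exons cover 7357, and that of MUC5AC is 17448 where its exons cover 5930. On this scale the value of MUC2 may therefore be too low and that of MUC5AC too high.

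RefSeq sequences before the start of transcription were at hand for 6 of the 10 genes, and those of AGR2, MUC1 and MUC13, the genes that rose together, are shown to set their promoters side by side. Each run is the 250 bases before the start, from 5′ to 3′ on the strand of the gene, in build GRCh38.p14. Capitals mark matches on either strand to letters searched for regulators of intestinal genes, TGTTTAC and TATTTAC for FOXA factors, TTTATG and TTTATT for CDX factors, GTTAAT for HNF1 factors, AGATAA for GATA factors, CACCC for KLF factors and CCGGAT for SPDEF, and to TATAAA, the TATA box. The letters were chosen after the values were seen.
AGR2, chr7:16805000-16805249, minus strand: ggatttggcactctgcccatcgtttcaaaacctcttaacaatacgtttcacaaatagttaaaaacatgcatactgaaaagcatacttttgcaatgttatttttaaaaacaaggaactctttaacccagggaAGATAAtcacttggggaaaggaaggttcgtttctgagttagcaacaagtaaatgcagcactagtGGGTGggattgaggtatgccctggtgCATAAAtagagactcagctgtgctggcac
MUC1, chr1:155192916-155193165, minus strand: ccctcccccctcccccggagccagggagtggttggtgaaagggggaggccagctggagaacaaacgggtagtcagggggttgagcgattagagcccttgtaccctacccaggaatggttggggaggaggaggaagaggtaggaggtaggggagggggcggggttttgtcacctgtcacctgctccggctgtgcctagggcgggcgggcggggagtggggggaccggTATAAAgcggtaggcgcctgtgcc
MUC13, chr3:124934752-124935001, minus strand: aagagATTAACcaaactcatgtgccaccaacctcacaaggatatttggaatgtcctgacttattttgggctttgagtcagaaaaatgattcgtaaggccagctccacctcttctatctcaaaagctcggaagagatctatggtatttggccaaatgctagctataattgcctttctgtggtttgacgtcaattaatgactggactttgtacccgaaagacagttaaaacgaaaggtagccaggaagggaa

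Counted from the start of transcription, the GATA letters of AGR2 begin at -119 and, both on the opposite strand, the KLF letters at -55 and the CDX letters TTTATG at -29. Of the letters searched, MUC1 holds only the TATA box, at -24, and MUC13 only those of HNF1, at -245 on the opposite strand. Of 35116 promoters in the table, 9.17% hold AGATAA, 54.7% CACCC, 9.64% TTTATG, 10.7% TATAAA and 6.23% GTTAAT within the same 250 bases. The letters without a match in the promoters shown were held by 2.98% (TGTTTAC), 2.39% (TATTTAC), 16.0% (TTTATT) and 5.85% (CCGGAT). The GC content of these stretches was 40.4% for AGR2, 66.0% for MUC1 and 41.6% for MUC13. No set of these letters was shared by the promoters shown, and a match is a description, not a binding site.

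Genes that act with mucins were counted in lists chosen with earlier results of these data known. The background for every list is 28.6% called up and 17.6% called down of all tested genes, and 14.0% and 10.5% with length and GC offsets. Lists with few tested genes cannot be set apart from these shares. Of 14 other mucins, 7 were tested, 2 were called up and 1 down, with a median log2 fold change of 0.25 where that of all tested genes was 0.32. MCAM, an adhesion molecule of the immunoglobulin family and not a mucin by structure, rose from 15.5 ± 4.01 to 101.5 ± 3.90 CPM. CD164, a sialomucin, rose from 18.4 ± 2.88 to 74.7 ± 14.1 CPM (mean ± SD, n = 3 in both). CD164 was at 0.56 on the log2 scale with length and GC offsets and not called. With these offsets 1 of the 7, MCAM, was called up and 2 down, and the median of the 7 was -0.41. MUC7, MUC15, MUC17, MUC22 and EMCN had no count in any library. Of 13 goblet cell products, 6 were tested, 1 was called up and 3 down, against 28.6% and 17.6% of all tested genes, with a median of -1.52. This median was -0.98 with length and GC offsets. SYTL2, which helps secretory granules dock, rose from 3.82 ± 0.76 to 40.4 ± 9.29 CPM and the kallikrein KLK1 fell from 40.2 ± 5.08 to 10.3 ± 0.695 CPM (mean ± SD, n = 3 in both). REG4, a secreted lectin named after its values were seen, fell from 4.18 ± 0.583 to 0.191 ± 0.0746 CPM (mean ± SD, n = 3 in both) and was the only product of this list still called down with length and GC offsets. SYTL2 was at 1.03 on the log2 scale with these offsets and not called, which left 0 of the 6 called up, with 1 higher at an unadjusted p under 0.05 by edgeR. CLCA1, RETNLB and AGR3 had no count in any library.

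Of 19 regulators of goblet and secretory cells, 16 were tested, 1 was called up and 2 down, against 28.6% and 17.6% of all tested genes. Their median log2 fold change was -0.17, and 0.41 with length and GC offsets. ATOH1, the factor that starts the secretory lineage, had no count in any library. FOXA3, a forkhead factor of gut endoderm, fell from 26.6 ± 3.54 to 2.64 ± 0.63 CPM, a log2 fold change of -3.32, and was still called with length and GC offsets at -1.92. CDX2, the factor of intestinal identity, fell from 346.7 ± 22.2 to 88.0 ± 5.18 CPM, and ERN1, a sensor of unfolded proteins, rose from 4.06 ± 0.60 to 16.2 ± 2.04 CPM (mean ± SD, n = 3 in both). With length and GC offsets CDX2 was at -1.47 and ERN1 at 0.58 on the log2 scale and neither was called.

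Of 30 enzymes of mucin-type O-glycosylation, which put and extend the sugar chains of mucins, 24 were tested, 7 were called up and 0 down, against 28.6% and 17.6% of all tested genes, so that the share called up was near the background. Their median log2 fold change was 0.77, and -0.17 with length and GC offsets. DESeq2 also called 7 up and 0 down, and 7 were lower at an unadjusted p under 0.05 with edgeR. GALNT16, which adds the first sugar, had 1, 2 and 3.68 counts in parental libraries, at or near the level of 3 counts, and 999.07, 659 and 718 counts in mutant libraries, through which alone it passed the filter. GALNT4 rose from 0.979 ± 0.407 to 8.09 ± 1.03 CPM (mean ± SD, n = 3 in both). With length and GC offsets 3 of the 24 were called up and 3 down, against 14.0% and 10.5% of all genes, with GALNT16 among the former and GALNT4, at 0.76, in neither. Of 17 genes of mucin granule release, 14 were tested, 3 were called up and 1 down, against the same 28.6% and 17.6%. RAB27B, a GTPase of granule docking, rose from 2.87 ± 1.27 to 16.7 ± 6.30 CPM, CFTR, the chloride channel of the crypt, from 13, 11 and 12 counts to 181, 147 and 79 counts, and the vesicle protein VAMP8 fell from 110.1 ± 24.8 to 25.2 ± 1.48 CPM (mean ± SD, n = 3 in both). None of these 3 genes was called with length and GC offsets, where 1 of the 14 was called up and 2 down.

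**Figure D4:**
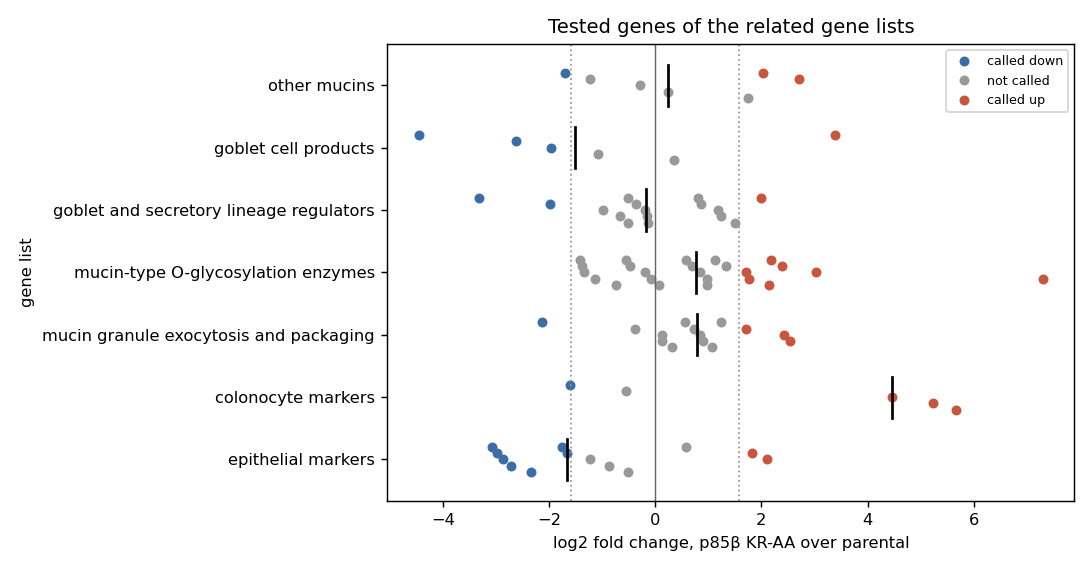
Log2 fold change of mutant over parental cells for each tested gene (points) of 7 gene lists, with red for genes called up, blue for genes called down and gray for the others. Black bars mark the median of a list and dotted lines a fold change of 3. The goblet cell products, the epithelial markers and the goblet and secretory lineage regulators have their medians below 0, at -1.52, -1.66 and -0.17. With length and GC offsets, not drawn, these were -0.98, -0.85 and 0.41. The 3 colonocyte markers in red passed the filter on low counts only through the mutant libraries.

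Markers of the other cells of the colon were given the same count, with the same background of 28.6% called up and 17.6% down. Of 14 colonocyte markers, 5 were tested, 3 were called up and 1 down. The 3 called up (CEACAM1, CEACAM5 and CEACAM6) passed the filter only through the mutant libraries. With at least 10 counts required in every library 2 markers were tested with edgeR, 0 were called up and 0 down, and 0 were higher and 1 lower at an unadjusted p under 0.05. In the wider test CEACAM5 rose from 0.388 ± 0.038 to 20.5 ± 1.99 CPM and CEACAM6 from 0.324 ± 0.200 to 12.7 ± 0.704 CPM, and carbonic anhydrase CA2 fell from 27.8 ± 2.26 to 9.10 ± 0.95 CPM (mean ± SD, n = 3 in both). SLC26A3, GUCA2B, MS4A12 and FABP1 had no count in any library. Of 14 epithelial markers, 13 were tested, 2 were called up and 7 down. The cadherins CDH17, from 6.60 to 28.5 CPM, and CDH1, from 97.3 to 343.8 CPM, rose, and keratin KRT8 and claudin CLDN3 fell, with log2 fold changes of -3.07 and -2.98. Under length and GC offsets 0 of the 13 were called up and 3 down, with 2 higher at an unadjusted p under 0.05 by edgeR. CDH17, CDH1 and CLDN3, at 1.02, 0.64 and -0.64, were then not called.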

How the data were processed

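RNA-seq libraries of DLD1 parental and p85β KR-AA cells (3 each) were analysed from the deposited table, in which the authors gave each gene an estimated count per library and a length in bases. The submitters' processing notes name HISAT2 2.1.0, RSEM 1.3.1, DESeq2 1.24.0 and build hg18, without their roles. The kit does not mark strand. Estimated counts were rounded, filtered with filterByExpr (minimum count 10, minimum total 15), TMM-normalized and tested with edgeR 4.0.16 in R 4.3.3 by the quasi-likelihood F test, and p-values were adjusted by Benjamini-Hochberg. Calls needed 3-fold or more and an adjusted p below 0.01. Standard errors were derived from the fold change and F. Symbols and positions came from GENCODE release 44 lifted to GRCh37, which held 56745 of the 58884 identifiers, and positions are those of this annotation. Length and GC offsets were robust splines of the deposited length and of GC content, each with 5 degrees of freedom, per library over 15902 genes. For MUC2, MUC5AC, TFF3 and AGR2 the deposited length differs from that of the annotated exons, and their offset values rest on the deposited one. Alternatives were DESeq2 1.42.0, library totals, other filters and thresholds, a replicate block and leaving out each library. The scripts were tested on simulated data. The 10 genes and all lists were chosen with earlier results of these data known. Within lists, the genes named were up to 2 with the largest changes in each direction among called genes whose average log2 CPM reached 1.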

Additional observations from a re-analysis of the deposited data

How the results depend on the processing

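The calls of MUC1 and AGR2 held under all alternatives tried. With library totals alone 7052 genes were called up and 973 down, so that 87.9% of calls were up against 61.9%. Of the 9 tested genes of the group 4 were called up and 0 down, against 43.9% and 6.06% of all tested genes. With at least 10 counts in every library only 12693 genes were tested, of which 2898 were called up and 2100 down. Of the group 7 genes were tested there, 3 called up and 1 down. With no filter on low counts 5225 of 28759 genes were called up and 2993 down. Of the 10 genes 4 were then called up, MUC12 in addition, and 2 down, TFF1 and MUC5B. At a fold change of 2 and an adjusted p under 0.05, 4289 genes were called down, and without a fold threshold 5246. Tested against a fold change of 3, 2974 of 16059 genes were called up and 1779 down, with 2 of the 9 tested genes of the group up and 1 down. With length and GC offsets 2230 of 15902 genes were called up and 1677 down, with 2 of the 9 tested genes of the group up and 0 down. Leaving out each library gave 4404 to 4783 genes up and 2774 to 2992 down, and 1 to 2 of the 10 genes down. The direction turned for MUC5AC with library totals (log2 fold change 0.52) and without parental replicate 1 (range over left-out libraries -0.72 to 0.044), for MUC2 with offsets (1.11), for SPDEF with offsets (0.29), and for the ratio of SPDEF to TFF3 (range -0.050 to 0.37, an alternative chosen after seeing the data). The cause was not tested. With a replicate block 4626 genes were called up and 2827 down, and no call among the 10 genes changed. Same-numbered libraries had correlations of deviations of -0.14, 0.12 and -0.045, so that the numbers did not pair the samples. Counts under 30 per library limit MUC2, MUC5B and MUC12, the last in every library but mutant replicate 3, which had 39.09.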

Other observations

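Among markers of the other intestinal lineages, CHGA, a granule protein of enteroendocrine cells, had no count in parental libraries and was at 3.30 ± 0.243 CPM (SD, n = 3) in p85β KR-AA libraries, at least 15.1-fold higher than the level of 3 counts per library. It was the only 1 of 12 enteroendocrine markers that passed the filter, and NEUROG3, PAX4, GCG, SST and SCGN had no count in any library. Of 10 stem and Paneth cell markers 3 passed the filter. The stem cell receptor LGR5 rose from 1.84 ± 0.548 to 7.67 ± 1.06 CPM and the surface glycoprotein PROM1 from 0.635 ± 0.351 to 3.92 ± 0.522 CPM, while the stem cell factor ASCL2 fell from 242.2 ± 61.5 to 19.4 ± 2.53 CPM (SD, n = 3 each). With length and GC offsets ASCL2 was still called, at a log2 fold change of -1.65, and LGR5 and PROM1 were not.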
